A study of Mus musculus with 6 samples.

Results

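The ADAM proteins are a family of membrane-anchored proteins that carry a disintegrin domain and a metalloprotease domain. The members measured here were all mRNA probes whose RefSeq accession maps to a gene symbol made of Adam, a number and optional letters, which leaves out the related ADAMTS genes. This rule found 40 probes of 34 genes, among 22464 mRNA probes on the array and 19053 genes that could be named. A symbol was found through a RefSeq gene table on GRCm38.p6 for 21905 mRNA probes (97.5%). From what is known of where they act, 22 genes with 22 probes were grouped as reproductive ADAMs and 12 genes with 18 probes as somatic ADAMs. RNA came from whole testis of male C57/BL6 mice at 6 days (neonatal) and at 8 weeks (adult) after birth. The authors divided 21 neonatal and 6 adult mice into 3 groups per age, so each biological replicate stands for a group of mice. Each replicate was hybridized to an array of its own in 1 colour (Cy3), which gives 3 arrays per age. The study profiled lncRNAs and mRNAs in testis at both ages, and the comparison asks which transcripts differ between the neonatal and the adult organ.

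Somatic ADAMs such as ADAM10 and ADAM17 cut the extracellular parts of receptors, ligands and adhesion proteins from the cell surface, a step called shedding. Many reproductive ADAMs lack the residues needed for catalysis, are made by male germ cells or by the epididymis, and act in sperm migration through the oviduct and in binding of sperm to the egg. In the mouse, the testis of the first week after birth holds Sertoli cells, spermatogonia and interstitial cells but no meiotic or later germ cells, whereas the adult testis holds every stage up to elongated spermatids.

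Levels are given as a normalized log2 signal, the log2 of the background-subtracted spot intensity minus the log2 of the 75th percentile of that array. Signals below a common floor of -7.22 were set to it. In lists of values, replicates 1, 2 and 3 are given in that order. The 75th percentile was 2947, 2503 and 1385 intensity units on the neonatal arrays and 1856, 1425 and 747 on the adult arrays. Between 65.9% and 69.8% of the spots were well above background, and 0 spots were saturated. Arrays 1 and 2 of both ages shared a scan identifier and both arrays numbered 3 shared another. Arrays with the same scan identifier are taken here as arrays of the same slide. Slide and replicate 3 therefore cannot be told apart. The scanner software marked spots as outliers, 10.7%, 9.84% and 30.7% of them on the neonatal and 8.32%, 6.11% and 25.4% on the adult arrays. Outlier spots were left out at first. Of the 40 ADAM probes, 22 then had at least 2 complete pairs of arrays and were well above background on at least 1. A fit with these spots kept tested 34 probes. Outlier marks fell unevenly on the family. On the neonatal arrays 0 of the 22 reproductive probes were marked on any array, and on the adult arrays 9, 7 and 16 were. Of the 18 somatic probes 3, 2 and 7 were marked on the neonatal and 1, 1 and 5 on the adult arrays. Among all mRNA probes the shares were 14.2%, 13.0% and 40.6% on the neonatal and 10.4%, 7.61% and 31.9% on the adult arrays.

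Most reproductive ADAMs were far higher in adult testis and the broadly expressed ADAMs were lower. With outlier spots left out, 10 of 22 tested ADAM probes were at least 5-fold higher in adult testis at an adjusted p of at most 0.05 (limma), where 12.6% of all tested mRNA probes were. Of these 10, Adam3, Adam6a and Adam18 were detected on adult arrays only, so they had to differ and add no support. At least 5-fold lower was 1 probe (Adam19), where 13.7% of all mRNA probes were. By adjusted p alone, 13 probes were higher (29.7% of all mRNA probes) and 5 were lower (45.8% of all mRNA probes), namely Adam10, Adam15, Adam17, Adam19 and Adam33. With outlier spots kept, 19 of 34 tested probes were at least 5-fold higher and 2 (Adam12 and Adam19) at least 5-fold lower, against 12.8% and 15.4% of all mRNA probes. Of these 19, 11 were detected on adult arrays only and had to differ. By adjusted p alone, 21 were then higher and 8 lower, against 29.8% and 49.5% of all mRNA probes, and 5 did not pass. For the remaining 6 of the 40 probes, no array was well above background. In whole tissue, fewer cells of a type and less RNA per cell cannot be told apart. Without replicate 1, only 10 ADAM probes could be tested when outlier spots were left out, and 2 were at least 5-fold higher, 5 higher and 3 lower. Without replicate 2 these counts were 2, 4 and 3 of 10 tested. Without replicate 3 they were 10, 13 and 5 of 22, and 0 probes were at least 5-fold lower. Without the block on replicate number and without adult replicate 3, 3 probes were at least 5-fold lower, and without neonatal replicate 1, 2 were. With outlier spots kept, leaving out any 1 replicate number left 19 at least 5-fold higher, between 21 and 22 higher and between 7 and 8 lower. Without replicate 3, the number at least 5-fold lower was then 1.

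All 22 reproductive probes could be tested with outlier spots kept, and 21 of them were higher in adult testis, 19 by at least 5-fold. Of all mRNA probes 29.8% were higher and 12.8% at least 5-fold higher. Well above background on all 6 arrays were 7 of the 22, and of these 6 were at least 5-fold higher and 1 did not pass. Another 11 were well above background on adult arrays only. A probe that enters the test only through the age in which it is bright had to differ in that direction, whether or not it passed. These 11 therefore add no support. Nor do their SE and adjusted p, since all 11 lay at the floor on every neonatal array and their neonatal values could not vary. The median log2 fold change of all 22 reproductive probes, these 11 included, was 8.33. With the probes undetected in neonatal testis set to their lower bounds it was 8.28. Over the 7 probes well above background on all 6 arrays, the median differences within pairs of arrays were 8.38, 7.65 and 7.45. The median over all mRNA probes tested was -0.50. Among the 18 somatic probes, 12 could be tested, with a median of -0.88. Of these, 8 were lower, 2 of them by at least 5-fold, and 4 did not pass, where 49.5% of all mRNA probes were lower and 15.4% at least 5-fold lower. The 5-fold count is near that background share.

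**Figure D1:**
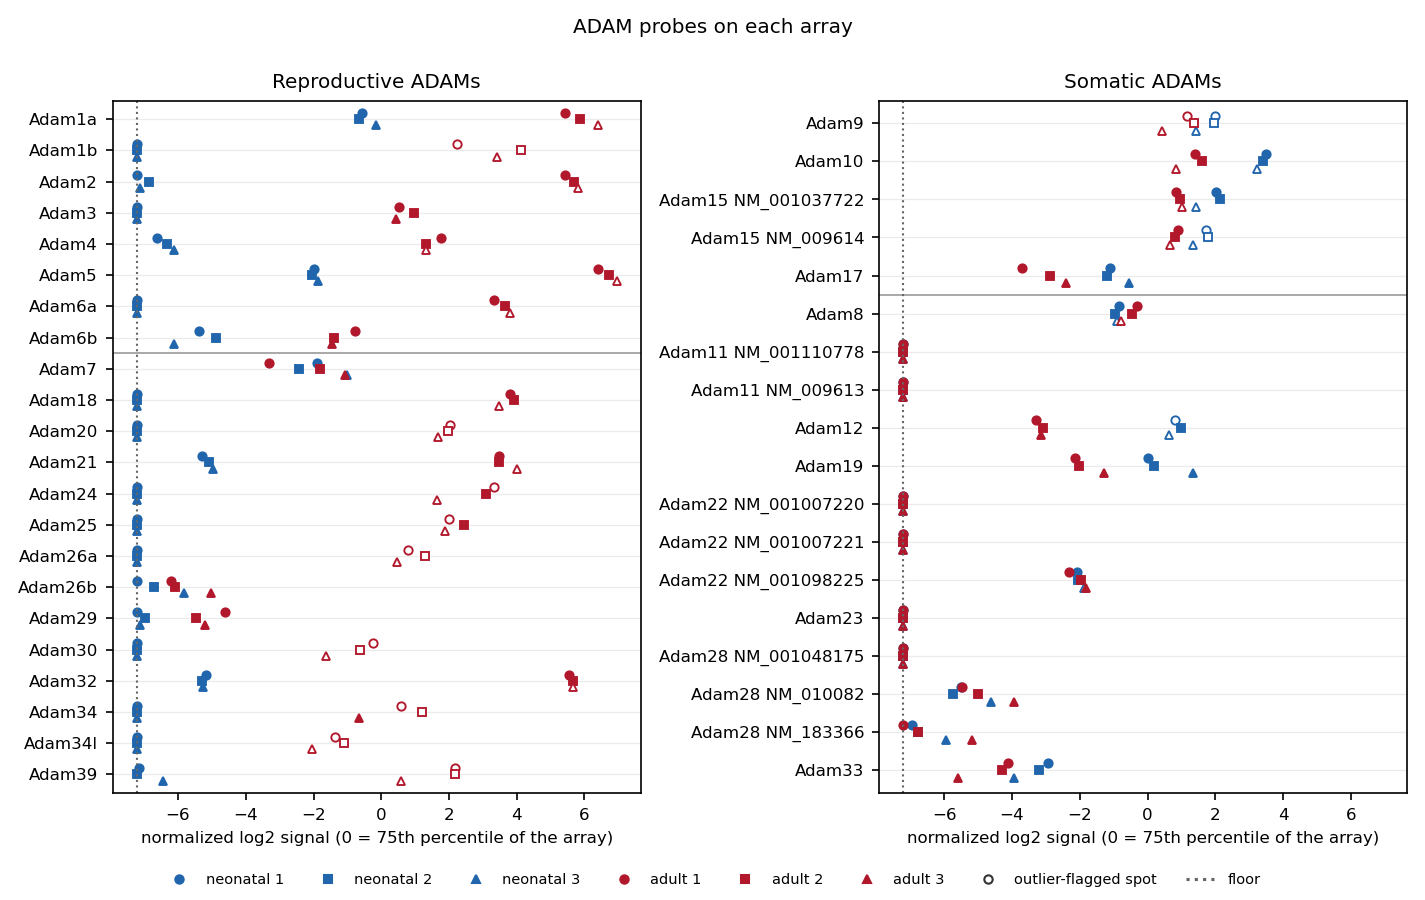
Normalized log2 signal of the 40 ADAM probes on each of the 6 arrays, with reproductive members on the left and somatic members on the right, neonatal in blue, adult in red, marker shape for the replicate and open markers for outlier spots. The dotted line is the floor at -7.22, where 11 reproductive probes lie on all 3 neonatal arrays and 6 somatic probes lie on all 6 arrays.

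The first group of reproductive members is formed by fertilin and other ADAMs of the sperm surface, and 8 of 8 probes were at least 5-fold higher in adult testis with outlier spots kept, where 12.8% of all mRNA probes were. Of these 8, Adam1b, Adam3 and Adam6a were detected on adult arrays only and had to differ. In Adam1a, Adam2, Adam4, Adam5, Adam6a, Adam18, Adam21 and Adam32 the spot of adult replicate 3 was an outlier, and their fitted values rest on pairs 1 and 2 unless kept spots are named. Adam2 (NM_009618) encodes the beta subunit of fertilin, a sperm-surface dimer. It read -7.22, -6.86 and -7.12 in neonatal testis and 5.43, 5.68 and 5.82 in adult testis. The neonatal values lay at or close to the floor, with 1 of 3 well above background, and the adult values spread over less than a 1.5-fold range. The log2 fold change was 12.59 (SE 0.14, 95% interval 12.15 to 13.04, adjusted p = 0.000123, higher in 3 of 3 pairs with the outlier spot counted), and its size depends on the floor and the background treatment (10.77 with normexp). Adam3 (NM_009619) encodes cyritestin, a sperm protein needed for passage into the oviduct. It read -7.22 on all 3 neonatal arrays and 0.53, 0.98 and 0.45 on the adult arrays. No neonatal array was well above background for Adam3, so a lower bound is given. It sets the mean adult level over the mean, across the neonatal arrays, of the lowest level that was well above background or of the floor, whichever was higher, and it holds for the background-subtracted signals. Adult Adam3 exceeded neonatal Adam3 at least 220-fold (log2 fold change 7.88 against the floor, SE 0.15, adjusted p = 8.71e-05). With the normexp background correction, which adds an offset of 50 to every signal, its log2 fold change was 4.85, below that bound. With outlier spots kept, the normexp values of the 11 probes with such bounds lay between 3.82 (Adam34l) and 8.98 (Adam6a).

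Adam1a and Adam1b encode alpha subunits that pair with ADAM2, the former inside the endoplasmic reticulum of germ cells and the latter on mature sperm. Adam1a (NM_172126) read -0.56, -0.65 and -0.16 in neonatal testis and 5.43, 5.88 and 6.40 in adult testis. It was thus measurable on every neonatal array, and still the groups stood far apart. Its log2 fold change was 6.25 (adjusted p = 0.000414, SE 0.21), a 76.3-fold difference. Adam1b (NM_172125) lay at the floor on all 3 neonatal arrays and read 2.24, 4.12 and 3.43 on the adult arrays, where all 3 spots were marked as outliers. With those spots kept, Adam1b rose at least 1343-fold with age (adjusted p = 7.4e-05).

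The other members of this group are known from sperm or testis, and ADAM5 and ADAM6 are found in complexes with other sperm ADAMs. Adam4 (NM_009620) read -6.62, -6.31 and -6.11 in neonatal testis and 1.77, 1.33 and 1.33 in adult testis. Adam5 (NM_007401) read -1.98, -2.04 and -1.86 in neonatal testis and 6.41, 6.73 and 6.95 in adult testis. Both were well above background on all 6 arrays and neither showed any overlap between ages. The log2 fold changes were 8.01 for Adam4 (adjusted p = 0.000375, SE 0.25) and 8.58 for Adam5 (adjusted p = 0.000198, SE 0.18). Adam6a and Adam6b are adjacent among protein-coding genes. Adam6a (NM_174885) lay at the floor on all 3 neonatal arrays and read 3.32, 3.64 and 3.81 in adult testis. Adam6b (NM_001009545) read -5.39, -4.88 and -6.12 in neonatal testis, well above background on 3 of 3 arrays, and -0.76, -1.41 and -1.44 in adult testis. Adam6a rose at least 1565-fold with age (adjusted p = 0.000146) and the log2 fold change of Adam6b was 4.26 (adjusted p = 0.000585, SE 0.29). The normexp correction gave smaller log2 fold changes, 3.12 for Adam6b and 6.59 for Adam4. Probe sequences were not analysed here, so binding of a probe to transcripts of a close copy was not tested.

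The second group of reproductive members holds 14 further genes of the testis or epididymis, and 11 of its 14 probes were at least 5-fold higher in adult testis with outlier spots kept, beside 12.8% of all mRNA probes. Of these 11, 8 were detected on adult arrays only and had to differ. ADAM18 and ADAM32 are membrane proteins of spermatogenic cells and sperm. Adam18 (NM_010084) lay at the floor on all neonatal arrays and read 3.81, 3.93 and 3.49 in adult testis. Adam32 (NM_153397) read -5.18, -5.28 and -5.27 in neonatal testis and 5.55, 5.67 and 5.65 in adult testis. The values of Adam32 were tight within each age, and its neonatal signal, though dim, was well above background on 3 of 3 arrays. For Adam32 the log2 fold change was 10.84 (adjusted p = 0.000136, SE 0.15), and Adam18 rose at least 2045-fold with age (adjusted p = 0.000128). Adam21 (NM_020330), a testis member whose product keeps the catalytic residues, read -5.30, -5.08 and -4.97 in neonatal testis and 3.46, 3.49 and 4.02 in adult testis. It was 8.66 log2 units higher in adult testis (adjusted p = 0.000162, SE 0.15), with well-measured signal at both ages. With the normexp correction the values were 10.05 for Adam32 and 7.83 for Adam21.

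Several further members of this group are testases, a rodent branch of testis ADAMs, among them Adam24, Adam25, Adam26a, Adam34 and Adam39. At least 2 of the 3 adult spots of each of these probes, and all 3 of Adam20, Adam30 and Adam34l, were marked as outliers, so their folds come from the fit with those spots kept. Adam24 (NM_010086) read 3.32, 3.08 and 1.65 in adult testis and lay at the floor in neonatal testis. Adam25 (NM_011781) read 2.01, 2.45 and 1.87 in adult testis and Adam20 (NM_001009548) 2.03, 1.96 and 1.67, both with all 3 neonatal arrays at the floor. None of these 3 genes was detected on any neonatal array, and all were detected on every adult array. The lower bounds were 899-fold for Adam24, 604-fold for Adam25 and 517-fold for Adam20, whereas the normexp correction gave smaller log2 fold changes of 7.83, 7.19 and 6.55. Adam39 (NM_001025380) read -7.14, -7.22 and -6.44 in neonatal testis and 2.17, 2.17 and 0.58 in adult testis. Adam26a (NM_010085) lay at the floor in neonatal testis and read 0.80, 1.29 and 0.47 in adult testis. For Adam39, replicate 3 was the highest neonatal and the lowest adult value, and its log2 fold change was 8.58 (adjusted p = 0.000264, SE 0.55). With 1 of 3 neonatal arrays well above background, that size depends on the floor, and normexp gave 6.48. The lower bound was 253-fold for Adam26a. Adam34, Adam30 and Adam34l also lay at the floor on all neonatal arrays, with lower bounds of 182-fold, 77.9-fold and 49.2-fold. For Adam34 the bound was 89.6-fold, from 1 adult array, with its outlier spots left out.

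The remaining 3 reproductive members changed by less than 5-fold or did not pass the test. Adam29 (NM_175939), a testis gene, read -7.22, -6.99 and -7.12 in neonatal testis and -4.63, -5.46 and -5.21 in adult testis. It was dim throughout, with no overlap between ages and a log2 fold change of 2.01 (95% interval 1.35 to 2.67, adjusted p = 0.00246), or 1.22 with normexp. Adam26b (NM_001009547), a close relative of Adam26a, read -7.22, -6.72 and -5.81 in neonatal testis and -6.20, -6.09 and -5.03 in adult testis. The ages overlapped for Adam26b, and only within pairs was each adult value higher. Its log2 fold change was 0.81 (95% interval 0.46 to 1.16, adjusted p = 0.00534), and without the block on replicate number the adjusted p was 0.194. Over its alternatives, quantile normalization gave 0.35 (adjusted p = 0.0579), and without the block leaving out single arrays gave between 0.44 and 1.20 with adjusted p between 0.0742 and 0.445. Adam7 (NM_007402), which is best known from the epididymis, read -1.89, -2.43 and -1.02 in neonatal testis and -3.31, -1.82 and -1.07 in adult testis. Its ages overlapped and its pairs differed in sign, with adult minus neonatal differences of -1.42, 0.61 and -0.05. Adam7 did not pass (log2 fold change -0.29, 95% interval -1.47 to 0.89, adjusted p = 0.569). Markers of the epididymis were examined beside it. Of 11 probes of 9 genes, 8 could be tested, 3 were higher in adult testis, 2 of them by at least 5-fold (both probes of Defb41), and 5 did not pass, where 29.8% of all mRNA probes were higher. Of the 3, Lcn9 and Defb41 NM_001040027 were detected on adult arrays only and had to differ. Lcn8, Rnase9 and 1 of the Lcn5 probes were at background throughout. The summed signal of all 11 epididymis probes was 5.51, 0.138 and 5.80 times the 75th percentile in neonatal testis and 0.437, 0.412 and 0.505 times in adult testis. Defb41 was brightest in adult testis and Crisp1 in neonatal testis. Crisp1 read 2.44, -4.34 and 2.52 in neonatal and -4.23, -4.37 and -5.30 in adult testis. The part of epididymal tissue in the values of Adam7 was not tested.

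Among the somatic members, the broadly expressed ADAMs were lower in adult testis, 5 of 5 probes by adjusted p with outlier spots kept and 3 of 3 tested with them left out, each by less than 5-fold. Of all mRNA probes 49.5% and 45.8% were lower in these fits. Adam10 (NM_007399) encodes the sheddase of Notch receptors and of the amyloid precursor protein. It read 3.50, 3.41 and 3.22 in neonatal testis and 1.39, 1.60 and 0.85 in adult testis. Every adult value lay below every neonatal value. The log2 fold change was -1.96 (SE 0.16, 95% interval -2.47 to -1.45, adjusted p = 0.00257), with the outlier spots of both replicates 3 left out. It passed 5-fold with quantile normalization (-2.34) and with the authors' log2 values (-2.36). Adam17 (NM_009615) encodes the enzyme that releases tumour necrosis factor and ligands of the epidermal growth factor receptor. It read -1.11, -1.19 and -0.56 in neonatal testis and -3.70, -2.89 and -2.42 in adult testis. The adult values spread more widely than the neonatal ones and did not overlap them. Its log2 fold change was -2.05 (SE 0.22, 95% interval -2.65 to -1.45, adjusted p = 0.00174, lower in 3 of 3 pairs).

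Smaller differences were measured for ADAM9 and ADAM15, sheddases and integrin-binding proteins of many cell types. Adam9 (NM_007404) read 1.99, 1.97 and 1.43 in neonatal testis and 1.16, 1.37 and 0.42 in adult testis, and all 6 spots were marked as outliers. The groups met closely, since the lowest neonatal value exceeded the highest adult value by less than 0.1 log2 units. With those spots kept its log2 fold change was -0.82 (95% interval -1.19 to -0.45, adjusted p = 0.00535), and without the block on replicate number the adjusted p was 0.0548. Adam15 was read by 2 probes. NM_001037722 read 2.02, 2.13 and 1.43 in neonatal testis and 0.85, 0.96 and 1.02 in adult testis. NM_009614 read 1.74, 1.79 and 1.35 in neonatal testis and 0.89, 0.80 and 0.65 in adult testis. Neither probe overlapped between ages, and in both replicate 3 gave the lowest neonatal value. With outlier spots kept, the log2 fold changes were -0.92 (adjusted p = 0.0143) and -0.84 (adjusted p = 0.0035).

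How far the broadly expressed members fell depends on the scaling. The median log2 fold change of all tested mRNA probes was -0.40, and it moved by -0.35 with quantile normalization, by -0.25 with a shift to the median and by 0.43 with the normexp background correction. With the authors' log2 values it moved by -0.32 over the 15025 mRNA probes tested both ways. No called ADAM probe changed direction under these scalings. Relative to the median of all mRNA probes, with outlier spots kept, Adam10 lay at -1.60 and Adam17 at -1.55 log2 units, Adam15 at -0.41 and -0.34, and Adam9 at -0.31. With quantile normalization and outlier spots kept, the same relative values were -1.56 for Adam10, -1.39 for Adam17, -0.18 and -0.07 for Adam15 and -0.06 for Adam9. The normexp correction with outlier spots kept moved most of them the other way, to -2.04 for Adam10, -0.71 and -0.62 for Adam15 and -0.72 for Adam9, with Adam17 at -1.51. With outlier spots left out, Adam15 NM_001037722 lay at -0.77, or -0.54 with quantile normalization. Its distance from the median thus depended on whether such spots were kept. The median also differed, -0.40 over 15119 probes with them left out and -0.50 over 19310 probes with them kept.

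The tissue-restricted somatic ADAMs were the most mixed group. Of its 13 probes, 7 could be tested with outlier spots kept, 3 were lower in adult testis, 2 of them by at least 5-fold, and 4 did not pass. The share that was lower is near the 49.5% of all mRNA probes. Adam12 (NM_007400) encodes meltrin alpha, which is made in mesenchyme and in forming muscle. It read 0.81, 0.99 and 0.64 in neonatal testis and -3.29, -3.08 and -3.16 in adult testis. Both ages were tight and far apart, although outlier marks on neonatal arrays 1 and 3 kept Adam12 out of the test unless such spots were kept. Its log2 fold change was then -3.99 (adjusted p = 5.1e-05, SE 0.13), 15.9-fold lower in adult testis, and -3.25 with normexp. Adam19 (NM_009616) encodes meltrin beta, a sheddase with a role in heart development. It read 0.01, 0.18 and 1.35 in neonatal testis and -2.14, -2.02 and -1.30 in adult testis. Replicate 3 was the highest of both ages, and the ages did not overlap. The log2 fold change was -2.33 (adjusted p = 0.00048, SE 0.15), 5.04-fold lower and thus just past the 5-fold threshold. Without replicate 3 it was -2.18, under that threshold and still past the adjusted p.

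Adam33 (NM_033615), known from smooth muscle and lung mesenchyme, read -2.94, -3.21 and -3.94 in neonatal testis and -4.11, -4.30 and -5.59 in adult testis. Here replicate 3 was the lowest of both ages. Its log2 fold change was -1.31 (95% interval -1.74 to -0.88, adjusted p = 0.00249). Without the block on replicate number the adjusted p was 0.0597, and between 0.0544 and 0.168 when a single array was also left out. With the normexp correction the log2 fold change of Adam33 was -0.48 (adjusted p = 0.0714). Adam8 (NM_007403), a member of leukocytes, read -0.84, -0.95 and -0.91 in neonatal testis and -0.30, -0.46 and -0.79 in adult testis. With outlier spots left out it was 0.52 log2 units higher in adult testis (95% interval 0.09 to 0.96, adjusted p = 0.043). With those spots kept it did not pass (0.39, adjusted p = 0.0645), and over its alternatives the adjusted p lay between 0.0207 and 0.477. Single arrays mattered for Adam8 without the block, where the adjusted p was 0.131 without neonatal replicate 1, 0.178 without neonatal replicate 2, 0.113 without adult replicate 1 and 0.0769 without adult replicate 2.

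ADAM11, ADAM22 and ADAM23 lack protease activity and act mainly in the nervous system, where ADAM22 and ADAM23 bind LGI proteins. Both Adam11 probes, the Adam23 probe and the Adam22 probes NM_001007220 and NM_001007221 lay at the floor on all 6 arrays. The third Adam22 probe, NM_001098225, read -2.08, -2.05 and -1.88 in neonatal testis and -2.31, -1.95 and -1.81 in adult testis. Its ages overlapped fully, and the difference was -0.07 log2 units (95% interval -0.59 to 0.46, adjusted p = 0.742). ADAM28 is a protease of lymphocytes and epithelia. Its probe NM_001048175 lay at the floor on all arrays. NM_010082 read -5.50, -5.74 and -4.63 in neonatal testis and -5.47, -5.00 and -3.93 in adult testis, and did not pass (0.49, 95% interval -0.03 to 1.00). NM_183366 read -6.95, -6.78 and -5.96 in neonatal testis and -7.22, -6.78 and -5.17 in adult testis and did not pass (0.17, 95% interval -0.50 to 0.85). The intervals of the tested Adam22 and Adam28 probes do not show that levels were alike at both ages.

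**Figure D2:**
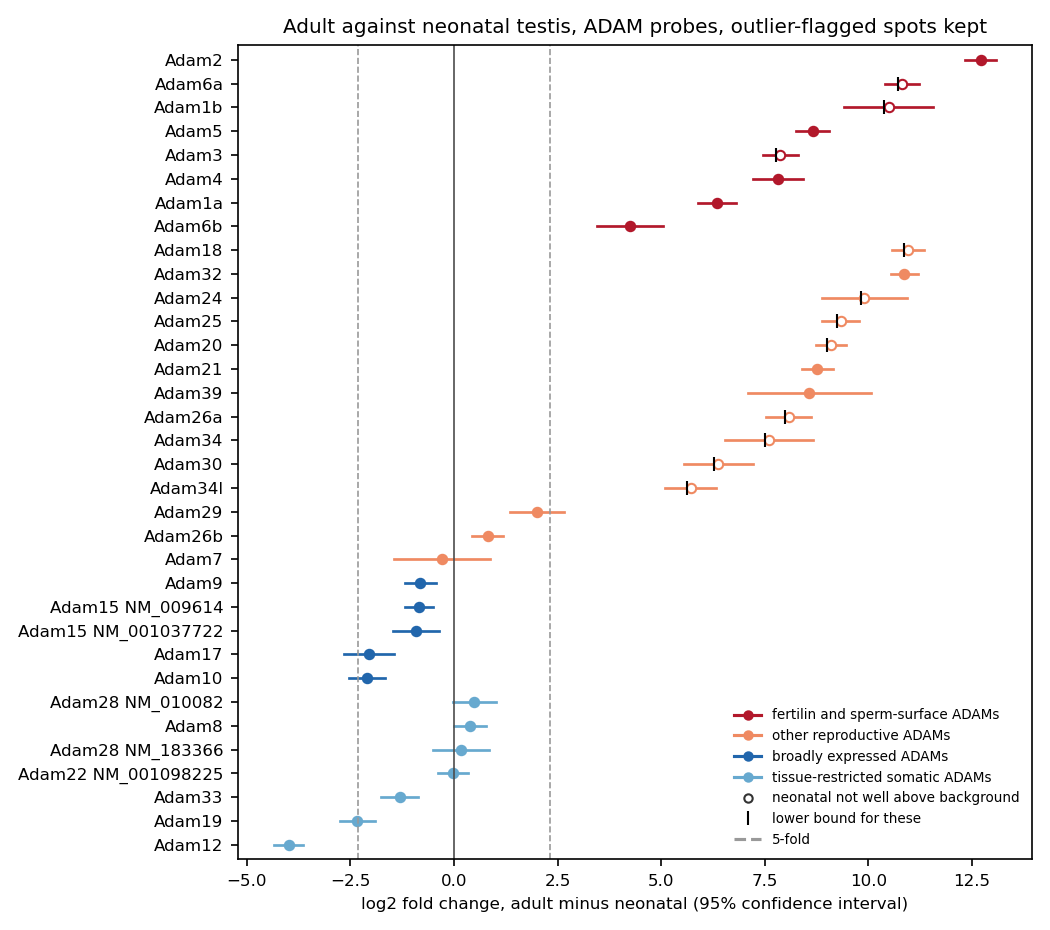
Log2 fold change (adult minus neonatal) with 95% interval for the 34 ADAM probes tested with outlier spots kept, coloured by list. Open points mark probes not well above background on any neonatal array, with a tick at the lower bound, and the dashed lines mark 5-fold; the reproductive probes reach 12.71 (Adam2) and the somatic probes extend down to -3.99 (Adam12).

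The reproductive and the somatic members were also compared within slides. Within pairs of arrays of the same replicate number, the median adult minus neonatal difference of the 22 reproductive probes was 8.38 and 8.54 log2 units on the slide of replicates 1 and 2 and 7.68 on the slide of replicate 3. The floor sets the differences of the 11 probes detected in adult testis only. Over the 7 reproductive probes well above background on all 6 arrays the medians were 8.38, 7.65 and 7.45, and over the 11 such somatic probes -1.17, -1.09 and -1.01. For the 12 somatic probes above background on any array it was -1.01, -1.04 and -0.85, and for the 5 broadly expressed probes -1.17, -1.17 and -1.01. The number of reproductive probes that were higher in the adult array of the pair was 21, 22 and 21 of 22. The floor fixed this direction for the 11 detected in adult testis only. Among the 7 well above background on all 6 arrays, the number was 6, 7 and 6. With outlier spots left out, the medians of the reproductive and somatic probes differed by 9.18 log2 units. That difference was 3.09 without replicate 1 and 3.67 without replicate 2, where only 10 members were tested. Summed over the 22 reproductive probes, the signal was 1.39, 1.28 and 1.87 times the 75th percentile in neonatal testis and 291, 356 and 386 times in adult testis. Adam1a was the brightest of these probes in neonatal and Adam5 in adult testis. Summed over the 18 somatic probes, it was 26.9, 26.9 and 23.0 times in neonatal and 10.1, 10.9 and 8.46 times in adult testis, with Adam10 brightest at both ages.

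Sperm ADAMs are folded, paired and processed by chaperones and maturation factors, many of them specific to the testis or epididymis, and 16 probes of 14 such genes were measured. The values for these and the following lists come from the fit with outlier spots kept unless stated. Of the 16 probes, 13 were higher, 11 of them by at least 5-fold, 1 was lower and 2 did not pass, with a median of 4.16, beside 29.8% higher and 12.8% at least 5-fold higher of all mRNA probes. The 7 that were well above background on adult arrays only enter these counts and the median, had to differ and add no support. Of the 9 well above background on all arrays, Clgn, Ly6k, Ace NM_009598, 1700029I15Rik and Lypd4 were at least 5-fold higher. Tex101 was higher by less than 5-fold, Tpst2 was lower, and Calr3 NM_029782 and Ace NM_207624 did not pass. With outlier spots left out, 11 were tested, 9 were higher, 7 of them by at least 5-fold, and 1 was lower. Clgn, the calmegin chaperone that assembles fertilin, read -0.43, -0.41 and 0.12 in neonatal testis and 4.99, 5.14 and 5.83 in adult testis (log2 fold change 5.56, adjusted p = 2.05e-05). Both ages were well measured and did not overlap. Prss37, Prss55, Cmtm2a and Cmtm2b, which sperm need for mature ADAM3, lay at the floor on every neonatal array. Their lower bounds were 5608-fold, 4065-fold, 2374-fold and 676-fold. Lypd4, a gene for a sperm protein, rose by 7.27 log2 units. Separate probes of the same gene differed for Calr3, a chaperone required for ADAM3, and for Ace, whose testis form is needed for normal ADAM3 in sperm. Calr3 NM_028500 rose at least 22.5-fold with age, whereas NM_029782 did not pass (-0.41, 95% interval -1.06 to 0.23). Ace NM_009598 rose by 3.74 log2 units (adjusted p = 7.16e-05), whereas NM_207624 did not pass (-0.09, adjusted p = 0.689). Tpst2, a sulfotransferase that sperm need for membrane binding to the egg, fell by 1.25 log2 units (adjusted p = 0.000854).

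The counterparts of these chaperones in other tissues were mixed. Of 10 probes of Calr, Canx, P4hb, Pdia3, Tpst1 and Furin, 4 were lower in adult testis (Calr, P4hb and both of Furin), 2 were higher (both of Tpst1) and 4 did not pass (Pdia3 and 3 of Canx), with a median of 0.12, beside 49.5% lower and 29.8% higher of all mRNA probes. All 6 calls rest on outlier spots, since only the 4 probes that did not pass could be tested without them. Furin, a convertase that removes the prodomains of somatic ADAMs, was lower by both probes (-2.34 and -2.23 log2 units), 1 of them by at least 5-fold. The carriers of ADAM10 and ADAM17, tetraspanins and inactive rhomboids that guide these proteases to the cell surface, were lower in 6 of 7 tested probes, 4 by at least 5-fold, with a median of -2.80, beside 49.5% and 15.4% of all mRNA probes. When outlier spots were left out, 3 were tested and 3 were lower, 2 of them by at least 5-fold. Tspan14, a carrier of ADAM10, read 1.93, 1.60 and 2.61 in neonatal testis and -3.17, -2.75 and -3.17 in adult testis (log2 fold change -5.07, adjusted p = 0.000225). Every adult value of Tspan14 lay more than 4 log2 units below every neonatal value. Rhbdf2, a carrier of ADAM17, was not well above background on any adult array, so it had to differ, and was at least 13.8-fold lower there. With its outlier spots left out, that bound was 5.54-fold and rested on 1 neonatal array. Tspan17 (-3.61) and Rhbdf1 (-2.80) fell as well. Tspan33 did not pass and Tspan10 was at background throughout. Metalloprotease inhibitors were lower in adult testis in 5 of 6 probes, with a median of -1.66, beside 49.5% of all mRNA probes, and Timp4 did not pass. Without outlier spots, 3 of 4 tested probes were lower. Timp3, the inhibitor of ADAM17, read 2.64, 2.70 and 3.85 in neonatal and 0.52, 0.65 and 1.48 in adult testis (log2 fold change -2.18, adjusted p = 0.000216).

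Genes for substrates of ADAM10 and ADAM17 were measured as well. Of 23 probes of 21 genes, 21 were tested, 17 were lower in adult testis, 8 of them by at least 5-fold, 1 was higher (Egf) and 3 did not pass (Tgfa, Areg and Tnf), with a median of -2.09. Of all mRNA probes 49.5% were lower and 15.4% at least 5-fold lower, and 5 of the 23 substrate probes, the 3 of Cd44 among them, were well above background on neonatal arrays only. Those called among these 5 had to differ and add no support. Without outlier spots, 16 were tested and 12 were lower, 5 of them by at least 5-fold. Notch1, a receptor cut by ADAM10, read 1.48, 0.60 and -0.08 in neonatal testis and -2.50, -2.55 and -3.16 in adult testis (log2 fold change -3.40, adjusted p = 0.000297). Kitl, the membrane-bound stem cell factor of Sertoli cells, read 4.54, 4.61 and 5.12 in neonatal and 2.17, 2.29 and 1.80 in adult testis (log2 fold change -2.67, adjusted p = 0.000803). The ages did not overlap for either gene. Cdh1 (-3.01), Notch2 (-2.38) and Tnfrsf1a (-2.34) fell as well, and the 3 probes of Cd44 were at least 6.34-fold, 5.05-fold and 4.44-fold lower. The last of these was counted as at least 5-fold lower only through its fold of 5.80 against the floor. Erbb4 and Tnfrsf1b were at background on all 6 arrays. Of the LGI ligands of ADAM22 and ADAM23, Lgi3 was at least 5-fold lower (-2.86), Lgi4 was lower (-1.42), Lgi2 did not pass and Lgi1 was not well above background.

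Many ADAM genes are neighbours in the genome. On GRCm38.p6, 14 of the 34 genes (41.2%) lie on chromosome 8, which holds 928 of the 19053 named genes (4.87%). In the order of protein-coding genes, 17 of the 34 stand in 5 runs of adjacent ADAM genes. Genes of other kinds that may lie between them were not counted. The longest run is Adam18, Adam3, Adam5, Adam32 and Adam9 on chromosome 8. Its first 4 genes, all reproductive, were higher in adult testis with outlier spots kept, at least 1873-fold for Adam18, at least 220-fold for Adam3, and by 8.66 and 10.87 log2 units for Adam5 and Adam32, while the adjoining broadly expressed Adam9 was lower by -0.82. The direction thus turned between adjacent genes. For Adam9 this rests on 6 outlier spots, and its call was lost without the block on replicate number. Relative to the median of all mRNA probes it lay at -0.31, or -0.06 with quantile normalization. Beyond the ends of this run, Ido1 was undetected in neonatal testis, so it had to differ, with a bound of 1.98-fold, and Tm2d2 was higher by 1.38 log2 units (adjusted p = 0.000704). The run Adam24, Adam25, Adam20 and Adam39 on chromosome 8 lies between Mtmr7 and Slc7a2, which were lower in adult testis (-1.79 for Mtmr7, -2.36 and -2.09 for the probes of Slc7a2). The run Adam26b, Adam26a, Adam34l and Adam34 lies between Zfp42, higher by 2.12 log2 units, and Gm5347. Gm5347 was undetected at the neonatal age and had to differ, with bounds of 8.23-fold with outlier spots kept and 5.19-fold with them left out, and its pair differences were uneven (3.45, 4.47 and 1.49). Adam6b and Adam6a on chromosome 12 follow Tmem121, which was lower (-2.47). They precede Zfp386, whose probes were -0.48 (adjusted p = 0.0465) and -0.24 (adjusted p = 0.137). Adam1b and Adam1a on chromosome 5 lie between Tmem116, higher by 3 probes (3.79, 3.66 and 3.93), and Mapkapk5. Mapkapk5 was higher by 0.62 with outlier spots kept and did not pass with them left out (0.45, adjusted p = 0.0665).

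Among members with a promoter sequence at hand, the reproductive and the broadly expressed ones differed in base composition. RefSeq promoter sequences on GRCm38.p6, 300 bases from 250 before to 50 after the start, were found for 20 promoters of 18 of the 34 genes. Among those without one were Adam2, Adam3, Adam4, Adam5, Adam18 and Adam32 of the reproductive and Adam9 of the broadly expressed members. The 11 reproductive promoters held between 0 and 4 CG dinucleotides (median 1), the 3 broadly expressed ones between 25 and 32 (median 30), and the 6 tissue-restricted ones, 3 of them of Adam19, between 5 and 31 (median 8.5). Over all 32851 promoters in the table the median was 7, and 43.5% held at least 10. At least 10 were held by 0 of 11 reproductive, 3 of 3 broadly expressed and 3 of 6 tissue-restricted promoters. The median share of G and C was 39.3% in the reproductive and 70% in the broadly expressed promoters, beside 52.7% in all. Pairs of promoters of different ADAM genes were compared without gaps over all offsets with at least 150 overlapping bases. Adam6b and Adam6a were identical at 199 of 199 overlapping positions, with the start of Adam6b placed 101 bases further along the shared sequence. Adam25 and Adam20 shared 61.3% of 297 positions at their best offset and, at another offset, an unbroken run of 88 bases. The other 185 of 187 pairs reached at most 48.7%. Shown are the promoters of these neighbours, which rose from undetected or dim neonatal levels, and those of Adam10 and Adam17, which fell, each 5′ to 3′ on the strand of its gene, with CG in capitals. Adam6a lies at chr12:113543658-113543957 (+ strand), Adam6b at chr12:113489315-113489614 (+ strand), Adam20 at chr8:40793023-40793322 (+ strand), Adam25 at chr8:40751958-40752257 (+ strand), Adam10 at chr9:70678732-70679031 (+ strand) and Adam17 at chr12:21373583-21373882 (- strand).
Adam6a: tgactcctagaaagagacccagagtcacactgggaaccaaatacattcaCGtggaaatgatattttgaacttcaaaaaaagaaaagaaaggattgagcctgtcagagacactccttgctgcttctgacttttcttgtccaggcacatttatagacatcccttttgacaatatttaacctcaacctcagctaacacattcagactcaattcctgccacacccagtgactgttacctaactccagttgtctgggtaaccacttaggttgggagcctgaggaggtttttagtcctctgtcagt
Adam6b: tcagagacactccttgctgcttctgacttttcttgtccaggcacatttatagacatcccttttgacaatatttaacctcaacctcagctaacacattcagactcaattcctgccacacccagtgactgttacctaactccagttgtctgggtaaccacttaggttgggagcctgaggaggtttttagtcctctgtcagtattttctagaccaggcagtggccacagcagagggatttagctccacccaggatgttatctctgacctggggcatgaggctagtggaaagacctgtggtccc
Adam20: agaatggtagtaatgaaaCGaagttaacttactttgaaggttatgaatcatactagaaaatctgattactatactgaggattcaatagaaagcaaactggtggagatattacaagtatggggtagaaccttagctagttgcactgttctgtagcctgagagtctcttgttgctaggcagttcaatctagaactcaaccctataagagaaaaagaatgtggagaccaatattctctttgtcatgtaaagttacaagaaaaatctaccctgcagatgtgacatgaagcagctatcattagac
Adam25: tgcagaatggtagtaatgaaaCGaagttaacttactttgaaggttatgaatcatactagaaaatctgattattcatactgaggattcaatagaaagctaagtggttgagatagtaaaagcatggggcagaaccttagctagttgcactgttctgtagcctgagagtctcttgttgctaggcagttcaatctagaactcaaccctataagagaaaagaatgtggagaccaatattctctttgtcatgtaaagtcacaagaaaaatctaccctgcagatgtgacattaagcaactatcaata
Adam10: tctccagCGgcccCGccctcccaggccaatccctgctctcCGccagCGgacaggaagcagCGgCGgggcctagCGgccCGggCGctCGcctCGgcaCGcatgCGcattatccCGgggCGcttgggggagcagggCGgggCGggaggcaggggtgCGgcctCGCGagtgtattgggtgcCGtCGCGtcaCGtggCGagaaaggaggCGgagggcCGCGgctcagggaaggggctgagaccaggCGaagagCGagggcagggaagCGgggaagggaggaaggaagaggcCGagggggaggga
Adam17: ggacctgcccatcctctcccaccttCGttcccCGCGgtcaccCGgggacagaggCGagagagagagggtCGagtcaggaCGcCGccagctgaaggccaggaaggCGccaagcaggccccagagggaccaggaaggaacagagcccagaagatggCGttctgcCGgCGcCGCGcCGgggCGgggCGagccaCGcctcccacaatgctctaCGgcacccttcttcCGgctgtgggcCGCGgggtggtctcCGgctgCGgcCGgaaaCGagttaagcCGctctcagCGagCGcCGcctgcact
In these windows Adam6a, Adam20 and Adam25 hold 1 CG each and Adam6b holds 0, against 32 in Adam10 and 30 in Adam17. The letters are a description of the windows and methylation was not measured.

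Markers of cell types of the testis were measured on the same arrays. Of 9 spermatid probes 9 were at least 5-fold higher in adult testis with outlier spots kept, where 12.8% of all mRNA probes were. Their median log2 fold change was 11.01, beside 8.33 for the reproductive ADAMs, which includes 11 probes detected on adult arrays only. Of these 9, 1 was detected on adult arrays only. Their summed signal was 0.741, 0.778 and 0.860 times the 75th percentile in neonatal and 1229, 1452 and 1678 times in adult testis, and Prm2 was brightest in adult testis. Of 8 spermatocyte probes 6 were higher, where 29.8% of all mRNA probes were, 3 of them by at least 5-fold, and 2 (Sycp3 and Spata22) did not pass. They summed to 41.6, 37.1 and 41.5 times in neonatal and 242, 253 and 318 times in adult testis. Tex101 was brightest in neonatal and Hspa2 in adult testis. In neonatal testis Tex101 read 3.82, 3.70 and 2.84 and Sycp1 3.07, 2.91 and 2.72. Only Piwil1 and Spata22 lay below the 75th percentile on the neonatal arrays. At an age with no meiotic germ cells, this list thus does not mark spermatocytes alone. Tex101 stands in this list and among the maturation factors. The part of cell composition in the higher values of reproductive ADAMs was not tested.

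Markers of spermatogonia, Sertoli cells, myoid cells and endothelium are given beside the somatic ADAMs. Of all mRNA probes 49.5% were lower in adult testis and 15.4% at least 5-fold lower, with outlier spots kept. Of 10 spermatogonial probes 6 were lower, 3 by at least 5-fold, 1 was higher, 2 did not pass and Gfra1 was not well above background. Ddx4 NM_010029 was higher by 2.2 log2 units, whereas Ddx4 NM_001145885 did not pass. The summed signal of the 10 probes was 134, 140 and 130 times the 75th percentile in neonatal testis and 70.7, 77.3 and 62.5 times in adult testis. Uchl1 was brightest in neonatal and Ddx4 NM_010029 in adult testis. Of 7 Sertoli cell probes 6 were lower, 4 by at least 5-fold, and Amhr2, the brightest, did not pass. They summed to 90.2, 91.2 and 71.4 times in neonatal and 35.4, 30.3 and 32.5 times in adult testis. Of 4 probes of peritubular myoid cells 3 were lower and Cnn1 was not well above background. These summed to 21.7, 22.0 and 27.0 times in neonatal and 4.78, 4.34 and 6.56 times in adult testis, and Myh11 was brightest. Endothelial markers were lower in 6 of 6 probes, 3 by at least 5-fold, and summed to 7.92, 9.11 and 15.2 times in neonatal and 2.19, 1.79 and 3.29 times in adult testis, with Cdh5 brightest. With outlier spots left out, 4 of 5 tested spermatogonial probes were lower, 1 by at least 5-fold. Of 3 Sertoli cell probes then tested 3 were lower, 2 by at least 5-fold. The part of these cell types in the lower values of Adam10, Adam17, Adam12 and Adam19 was not tested.

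The remaining marker lists were mixed, beside 29.8% of all mRNA probes higher and 49.5% lower. Of 7 Leydig cell probes 4 were higher, 2 by at least 5-fold, 1 was lower and 2 did not pass. With outlier spots left out, 4 were tested, 2 were higher, 0 of them by at least 5-fold, and 1 was lower. The 7 probes summed to 26.8, 28.6 and 25.5 times the 75th percentile in neonatal and 81.3, 67.6 and 63.0 times in adult testis, with Hsd3b1 brightest in neonatal and Insl3 in adult testis. Macrophage markers, given because ADAM8 is known from leukocytes, were higher in 1 of 4 probes, lower in 2 and did not pass in 1. Their sums were 3.87, 3.67 and 3.84 times in neonatal and 2.45, 2.41 and 3.15 times in adult testis, with Csf1r brightest. Of 3 blood probes both probes of Alas2 were higher and Hba-a1 was at least 5-fold lower, a call that rests on outlier spots. The 3 probes summed to 5.13, 6.60 and 2.56 times in neonatal testis, where Hba-a1 was brightest, and to 4.60, 4.30 and 3.77 times in adult testis, where Alas2 was. The part of these cells in the ADAM values was not tested.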

How the data were processed

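The scanner files deposited by the authors hold, for each spot, an intensity that Feature Extraction 10.5.1.1 subtracted for background and detrended within the array, on a design with build mm9. A second table that the authors deposited gives log2 values for 26771 probes, and per array 100% of them match, within 0.001, a log2 signal with floor 5 less an array constant. The intensities were averaged over spots of a probe, scaled to the 75th percentile of each array, floored at -7.22 and taken to log2. The fit, by limma 3.58.1 under R 4.3.3, took every probe that was well above background somewhere, blocked on replicate number, and needed 2 complete pairs, with Benjamini-Hochberg adjustment over 24514 probes (15119 mRNA and 9395 lncRNA). The prior had 2.09 degrees of freedom. Tables and plots were made with Python 3.11.15, numpy 2.4.6, pandas 2.3.3 and matplotlib 3.10.9.

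Arrays of the same age correlated with r between 0.970 and 0.996 across probes, and arrays of different age with r between 0.602 and 0.782, where probes are not independent replicates. To check the pairing, deviations from the mean of each age were correlated across 7333 probes, which share slides and are not independent replicates. The r was 0.497, 0.429 and 0.777 for arrays of the same number, 0.508 and 0.470 for different numbers on the same slide and between -0.690 and -0.556 across slides. On the slide of replicates 1 and 2, arrays of the same number thus correlated no more closely than arrays of different numbers. For replicate 3, a pairing by number and an effect of the slide cannot be told apart.

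The members and lists were chosen with earlier results of these data known. Values in every array were given for Adam2, Adam3, Adam10 and Adam17 and, in each ADAM list, for up to 8 called probes with the largest change. Of the related lists, up to 5 of the largest 5-fold calls were named. Other genes were named after their values were seen. Not matched to any probe were Adam36, Adam37, Adam40, Adam41, Pdilt, Pmis2, Rhox5, Cd68 and Hbb-b1. The alternatives were no floor, a median shift, quantile normalization, normexp with an offset of 50, the authors' log2 values, other filters on dim probes, outlier spots kept, no block, the slide as block, single replicates left out, a 2-fold threshold and the methods' t-test with and without adjustment. Normexp used the median spot signal, since the files hold no mean signal. Combinations of kept outlier spots with other settings were chosen after seeing the data. The result of 1 marker list is not reported here. The number of arrays limits the precision.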

Additional observations from a re-analysis of the deposited data

How the results depend on the processing

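With outlier spots kept, 19 ADAM probes in place of 10 were at least 5-fold higher in adult testis, 2 in place of 1 at least 5-fold lower, 21 in place of 13 higher and 8 in place of 5 lower by adjusted p. More members were tested (34 in place of 22), which follows from how that alternative is built. The number at least 5-fold lower was also 2 with quantile normalization, 3 with the authors' log2 values, 0 with the normexp correction, 2 with no block on replicate pairing and 5 with a 2-fold threshold, and the cause was not tested. Without the block, 13 probes were at least 5-fold higher, 15 higher and 5 lower, and the difference of the medians of reproductive and somatic members was 9.45. Leaving out a replicate number gave 2 to 10 at least 5-fold higher, 0 to 1 at least 5-fold lower, 4 to 13 higher, 3 to 5 lower, and a difference of medians from 3.09 to 9.15. Leaving out single arrays without the block gave 11 to 13, 1 to 3, 12 to 15, 4 to 5 and 9.27 to 9.68. Without replicate 1 or 2 only 10 members were tested.

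With outlier spots kept as the starting point, leaving out replicates gave 19 to 19 at least 5-fold higher, 1 to 2 at least 5-fold lower, 21 to 22 higher, 7 to 8 lower and a difference of medians from 8.90 to 9.45. Quantile normalization gave 3 at least 5-fold lower, the normexp correction gave 1 and a difference of 7.19, and no floor gave 9.79, against 9.21, and the cause was not tested. Of the alternative values for single called probes, 407 kept their direction and their side of the adjusted p threshold, 31 kept the direction but missed that threshold and 0 reversed. Passing 5-fold was not part of this count, and Adam19 and Adam10 crossed 5-fold in some settings. The latter 31 belong to Adam26b, Adam8, Adam33, Adam9 and, with the methods' adjusted t-test, Adam1a, Adam4, Adam29 and Adam10. Signal over background limits the low end, since the lowest signal well above background lay between 6.09 and 24.0 intensity units over the arrays.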
